A study of Homo sapiens with 8 samples.

Results

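The brush border and microvillus genes described here are VIL1, CDHR2, CDHR5, MYO7B, USH1C, MYO1A, EPS8, PLS1, MISP and ANKS4B. They were chosen by name, with earlier results of these data known, and all 10 were found among the 30755 gene symbols of the expression table. Their expression was read in ESO26, an established line of human oesophageal adenocarcinoma cells, in 2 RNA-seq libraries of control cells and 2 of cells in which HNF4A was knocked down with small interfering RNA (siHNF4A). All 4 libraries are of unsorted cells of this single line. The siRNA sequences, the kind of control and the time between transfection and harvest are not given in the sources used here, and nothing states that libraries of a group came from separate cultures. The design text of the series speaks of triplicate sequencing for this experiment, whereas the labels and the expression table hold a pair of libraries for each group. P-values therefore measure the spread between these libraries, which may be technical.

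A brush border is the carpet of tightly packed microvilli on the apical side of an absorptive epithelial cell. Each microvillus is held up by a core of parallel actin filaments, which bundling proteins tie together and which class I myosins link to the membrane, while protocadherins at the tips join neighbouring microvilli so that they stand in register. Enterocytes carry such a border, the normal squamous oesophagus does not, and HNF4A, a nuclear receptor of endodermal epithelia, is known to drive genes of the border in the intestine.

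Values are the authors' normalized counts, which are not corrected for gene length, so levels were compared between libraries and not between genes. A fold change is the difference of mean log2(normalized count + 1), siHNF4A minus control. It was fitted with limma over the 15577 genes whose mean reached 10, and a gene was called when its Benjamini-Hochberg adjusted p over those genes was under 0.05. All 10 members passed the filter, MYO1A (mean 15.1) and CDHR2 (57.1) being closest to it. MYO1A passed only through its control libraries. HNF4A itself had 4129 and 3937 normalized counts in control cells, against 1140 and 932 after knockdown, which is 25.7% of the control mean.

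Of the 10 members 3 fell after the knockdown and none rose. The genes that fell were MYO7B, PLS1 and ANKS4B, each to between 68.5% and 75.1% of its control mean. Among all genes tested 14.1% were called, 8.11% as lower and 6.02% as higher. With equal library totals the share of calls that were higher went from 42.6% to 52.9%, and MISP joined the members called, as higher. The members did not move in 1 direction: 5 had higher and 5 had lower values after knockdown. Their median log2 fold change was 0.0020, against -0.0073 over all genes tested. Their median absolute log2 fold change was 0.41, against 0.20 over all genes tested. The count of members called moved with the fit. It was 3 with a pseudocount of 0.5 (14.1% of all genes called), a pseudocount of 10 (14.4%) or a robust variance fit (14.9%), and 4 with equal totals (13.8%) or quantile normalization (13.2%). It was 5 with a filter at a mean of 50 (19.7%), 1 when every gene above 0 somewhere was tested (2.4%) and 0 without the variance trend (0%, with 3 members at an unadjusted p under 0.05 in limma). With 1 library left out, where 1 group has a single library that is assumed to vary like the other group, it was 2 without siHNF4A replicate 1 (7.07%) or siHNF4A replicate 2 (6.5%), and 4 without control replicate 1 (15.7%) or control replicate 2 (12.7%). In 8 of the 10 members the knockdown libraries did not overlap the control libraries, as in 57% of all genes tested.

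**Figure D1:**
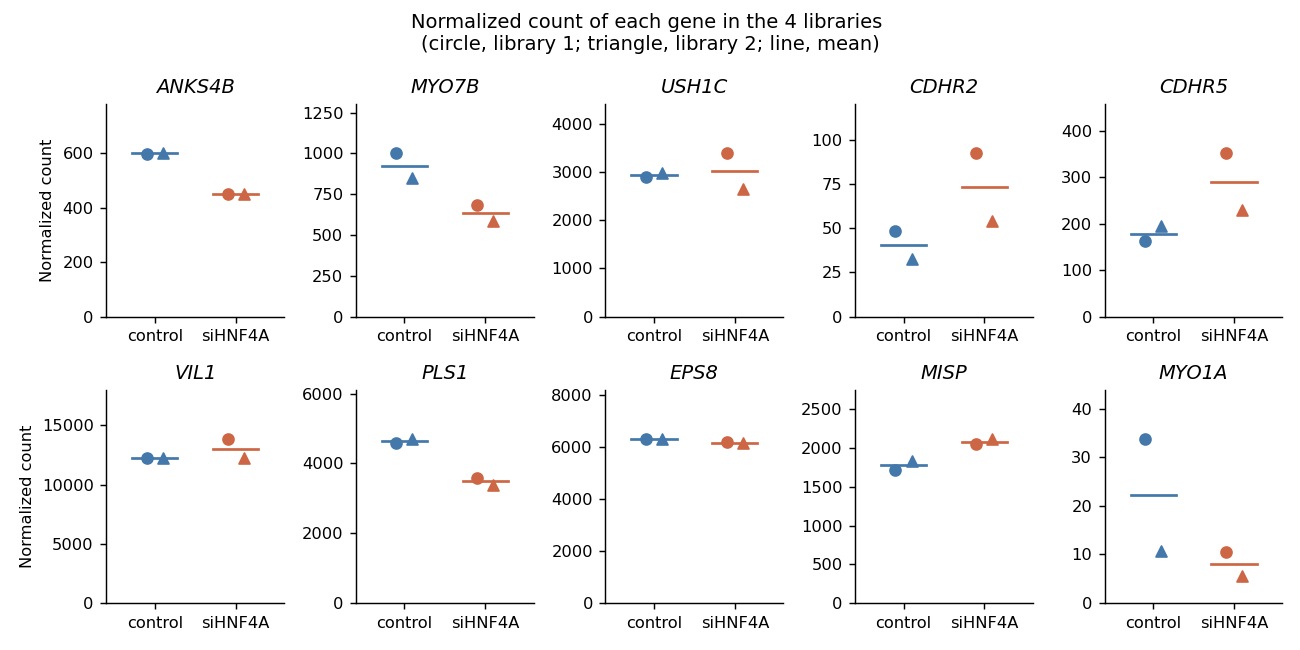
Normalized count (vertical axis, from 0, scaled per gene) of the 10 genes in the control and siHNF4A libraries, with circles for library 1, triangles for library 2 and lines for the mean of 2. PLS1, ANKS4B and MYO7B lie lower in both knockdown libraries, while the knockdown libraries of CDHR5, CDHR2 and USH1C lie far from each other.

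The start sites of the members that fell are shown first, a choice made from the calls above. Whether HNF4A acts at these starts was not tested. RefSeq promoter windows of GRCh38.p14, which run from 250 bases before to 50 bases after an annotated transcription start, were at hand for 7 of the 10 members and covered 13 starts. They were searched on both strands for AAAGTCC and CAAAGT, both parts of the HNF4 motif that can overlap each other, for the GATA motif, searched as AGATAA, and for the CDX motif, searched as CCATAAA. The 250 bases before the first annotated start of each gene that fell are printed 5′ to 3′ on the strand of the gene, which is the plus strand for these 3 genes, with motif matches in capitals.
MYO7B, chr2:127535433-127535682: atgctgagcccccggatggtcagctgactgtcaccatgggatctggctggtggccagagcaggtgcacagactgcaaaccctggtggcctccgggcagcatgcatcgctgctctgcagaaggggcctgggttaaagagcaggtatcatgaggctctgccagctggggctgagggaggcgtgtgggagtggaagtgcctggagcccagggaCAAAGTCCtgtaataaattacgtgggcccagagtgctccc
PLS1, chr3:142596143-142596392: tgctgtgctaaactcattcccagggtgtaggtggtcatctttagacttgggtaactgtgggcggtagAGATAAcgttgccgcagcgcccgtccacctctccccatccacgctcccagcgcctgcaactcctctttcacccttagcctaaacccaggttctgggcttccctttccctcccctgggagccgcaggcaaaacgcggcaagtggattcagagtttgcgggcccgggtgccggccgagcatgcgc
ANKS4B, chr16:21233449-21233698: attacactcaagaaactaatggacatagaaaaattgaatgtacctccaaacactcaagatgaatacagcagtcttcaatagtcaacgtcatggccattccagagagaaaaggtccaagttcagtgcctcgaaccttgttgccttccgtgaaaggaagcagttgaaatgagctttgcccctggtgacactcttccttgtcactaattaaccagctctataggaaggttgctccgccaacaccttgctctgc
The MYO7B stretch holds AAAGTCC at -39 to -33, counted from the base before the start, and CAAAGT overlaps it by all but 1 base. The PLS1 stretch holds AGATAA at -183 to -178. None of the 4 strings searched occurs in the ANKS4B window. Only exact matches were sought, so other forms of these motifs, in this or any window, were not looked for.

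AAAGTCC was found in 4 of the 13 windows, those of MYO7B, USH1C, MISP and MYO1A, against 3.71% of all 35116 promoter windows of this length. In the windows of MISP and MYO1A the same 8 letters as in MYO7B stand on the other strand, and these stretches are printed on the strand of the gene, plus for MISP and minus for MYO1A.
MISP, chr19:750990-751018: cctcctcctctGGACTTTGtttcctgatc
MYO1A, chr12:57050141-57050169: aggaacagtctGGACTTTGtgctgatcag
The MISP match covers -111 to -105 and the MYO1A match, before its second annotated start, -29 to -23. In USH1C the match lies at -248 to -242 before the first start. Of these 4 genes only MYO7B was called in the fit as reported, and PLS1 and ANKS4B were called without an AAAGTCC match. CAAAGT was found in 6 of the 13 windows, those of MYO7B, MISP, MYO1A, USH1C, CDHR2 and PLS1, against 11.9% of all windows. The PLS1 match lies 37 to 42 bases after its second start. AGATAA was found in 2 of the 13 windows, against 10.3% of all, and CCATAAA in 2, against 2.54% of all, each in windows of PLS1. A match gives letters and not a bound site. The peaks of the HNF4A and GATA4 ChIP-seq libraries were not placed at these genes, as the lists are in hg19 per the submitters' processing notes and no annotation of that build was used.

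**Figure D2:**
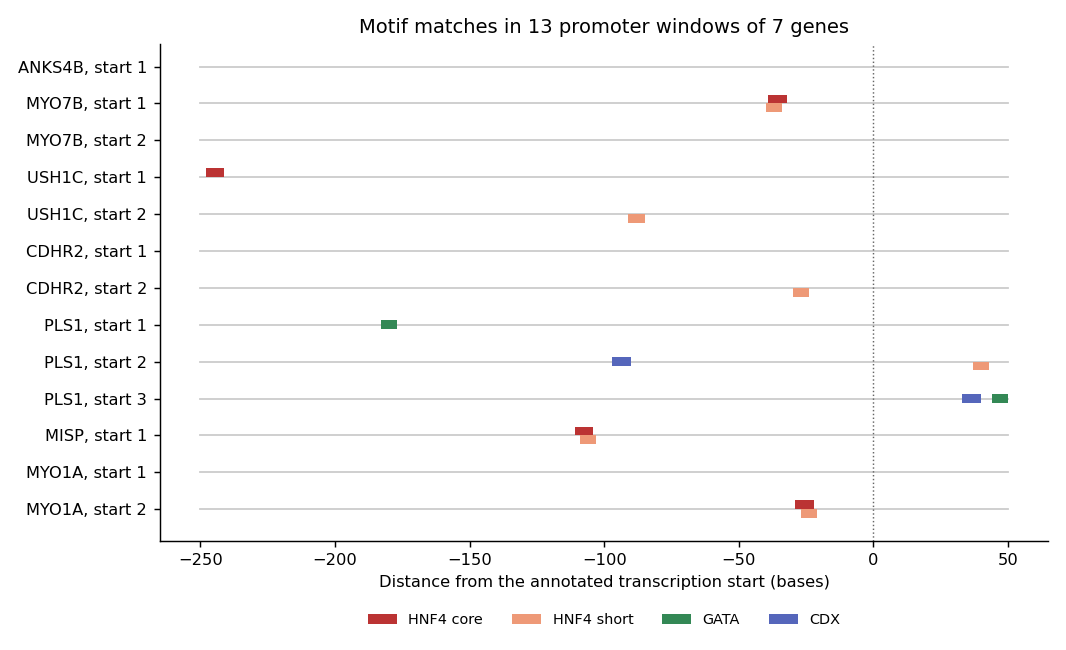
Position of motif matches on either strand (coloured bars) along 13 promoter windows of 7 genes, in bases from the annotated transcription start (dotted line). The AAAGTCC matches (HNF4 core) of MYO7B, MYO1A and MISP lie between -111 and -23 and overlap a CAAAGT match (HNF4 short). The ANKS4B window holds no exact match.

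The complex that joins microvillus tips was described first. MYO7B encodes its motor, a myosin that carries the complex to the tips. MYO7B had 1004 and 848 normalized counts in control cells, against 684 and 585 after knockdown. Both knockdown libraries lay below both controls, and the fall was 0.54 on the log2 scale with a standard error of 0.12 (adjusted p = 0.0135 in limma). The call was lost without siHNF4A replicate 2 (adjusted p = 0.0874), when all genes above 0 in at least 1 library were tested (0.0899) and without the variance trend (0.166). MYO7B overlaps MYO7B-AS1 in the RefSeq annotation, and whether reads were counted by strand is not given in the sources used here.

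ANKS4B encodes an ankyrin repeat scaffold that holds the motor and the other scaffold of the complex together. Its values were 597 and 601 in control cells, against 449.9 and 448 after knockdown. The libraries of each group were nearly identical, and the fall was 0.42 on the log2 scale with a standard error of 0.10 (adjusted p = 0.0240 in limma). That error comes mostly from the spread of other genes at this level, since the SD between libraries was 2.79 for control and 1.01 for knockdown (n = 2 for both). Its log2 fold change stayed between -0.42 and -0.41 with any 1 library left out. The call nevertheless was lost without siHNF4A replicate 1 (adjusted p = 0.0937 in limma), siHNF4A replicate 2 (0.0994) or control replicate 2 (0.0566), and also when every gene above 0 somewhere was tested (0.0728) and without the variance trend (0.127).

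USH1C encodes harmonin, the PDZ scaffold that binds the tails of the tip protocadherins. It had 2894 and 2977 normalized counts in control cells, against 3406 and 2657 after knockdown. The controls lay between the knockdown libraries, so that the groups overlapped. USH1C had a log2 fold change of 0.036 with a 95% interval of -0.19 to 0.26 (adjusted p = 0.857 in limma), and its sign turned without siHNF4A replicate 1, to -0.14. The intervals of MYO7B (-0.80 to -0.28) and of ANKS4B (-0.64 to -0.19) lay below 0. Whether these 2 genes differed from USH1C in their response was not tested.

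CDHR5 and CDHR2 encode the pair of protocadherins that bind each other between neighbouring microvilli. CDHR5 had 162 and 195 normalized counts in control cells, against 353 and 229 after knockdown. The knockdown libraries were both above the controls but differed 1.54-fold from each other. A log2 fold change of 0.67 (standard error 0.21) was not past the threshold (adjusted p = 0.0580 in limma), but was with a block for replicate number (0.0259). Its adjusted p was 0.0200 without siHNF4A replicate 2 and 0.0157 without control replicate 2, and 0.0422 with a filter at a mean of 50. Without siHNF4A replicate 1 the log2 fold change was 0.36 (adjusted p = 0.364).

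CDHR2 had 48.5 and 32.6 normalized counts in control cells, against 93.0 and 54.5 after knockdown. The groups did not overlap, and the library that was higher exceeded the other 1.49-fold in control cells and 1.71-fold after knockdown. Its log2 fold change of 0.83 (standard error 0.33) was not past the threshold (adjusted p = 0.130 in limma). It was past it without control replicate 1, at 1.10 (adjusted p = 0.0344). CDHR2 overlaps RNF44 and GPRIN1 in the RefSeq annotation. Both protocadherins had higher values in the knockdown while the motor and a scaffold of their complex fell. Neither protocadherin was called in the fit as reported.

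CALML4, a calmodulin-like protein known as a light chain of the same motor, is the remaining gene of the complex and was read as part of the list of further microvillus genes. It had 1757 and 1683 normalized counts in control cells, against 1525 and 1406 after knockdown. Both knockdown libraries were lower, and the log2 fold change of -0.23 was not past the threshold (adjusted p = 0.0786 in limma).

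Among the proteins of the actin core, PLS1 fell. PLS1 encodes plastin 1, also called fimbrin, which ties filaments into tight bundles. It had 4591 and 4698 normalized counts in control cells, against 3590 and 3390 after knockdown. Both knockdown libraries lay well below both controls, and the fall was 0.41 on the log2 scale with a standard error of 0.062 (adjusted p = 0.00258 in limma). In the fits with 1 library left out, which take the spread from the other group and from other genes, PLS1 had an adjusted p of at most 0.0269. It lost its call only without the variance trend (0.130) among the alternatives run. PLS1-AS1 overlaps it in the RefSeq annotation.

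VIL1 encodes villin, which bundles filaments and can also sever them in the presence of calcium. Its values were 12202 and 12281 in control cells, against 13832 and 12218 after knockdown. One knockdown library was higher than both controls and the other lay between them. The log2 fold change was 0.087 with a 95% interval of -0.054 to 0.23 (adjusted p = 0.409 in limma), and it was -0.0028 without siHNF4A replicate 1. In linear terms the interval runs from 0.963-fold to 1.17-fold. VIL1 overlaps USP37 in the RefSeq annotation.

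EPS8 encodes a protein of the microvillus tip that caps and bundles actin. It had 6313 and 6316 normalized counts in control cells, against 6202 and 6153 after knockdown. Although the groups did not overlap, they were less than 3% apart. The log2 fold change was -0.032 with a 95% interval of -0.15 to 0.089 (adjusted p = 0.748 in limma), and its sign turned with either other scaling, to 0.0075 with equal library totals and 0.012 after quantile normalization.

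MISP encodes an actin-bundling protein that also positions the mitotic spindle. It had 1723 and 1830 normalized counts in control cells, against 2052 and 2116 after knockdown. Both knockdown libraries were above both controls, by 0.23 on the log2 scale (standard error 0.072, adjusted p = 0.0613 in limma). MISP was past the threshold with equal library totals (adjusted p = 0.0281), after quantile normalization (0.0280) and with a filter at a mean of 50 (0.0440).

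MYO1A encodes the class I myosin that links the actin core to the membrane of the microvillus. It had 33.7 and 10.6 normalized counts in control cells, against 10.4 and 5.52 after knockdown. Control 1 stood apart, and control 2 was almost level with siHNF4A 1. Its log2 fold change of -1.22 had a standard error of 0.61 and was not past the threshold (adjusted p = 0.220 in limma). It was -0.43 without control replicate 1 (adjusted p = 0.741) and -2.01 without control replicate 2 (adjusted p = 0.0287), so its size rests on a single control library.

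**Figure D3:**
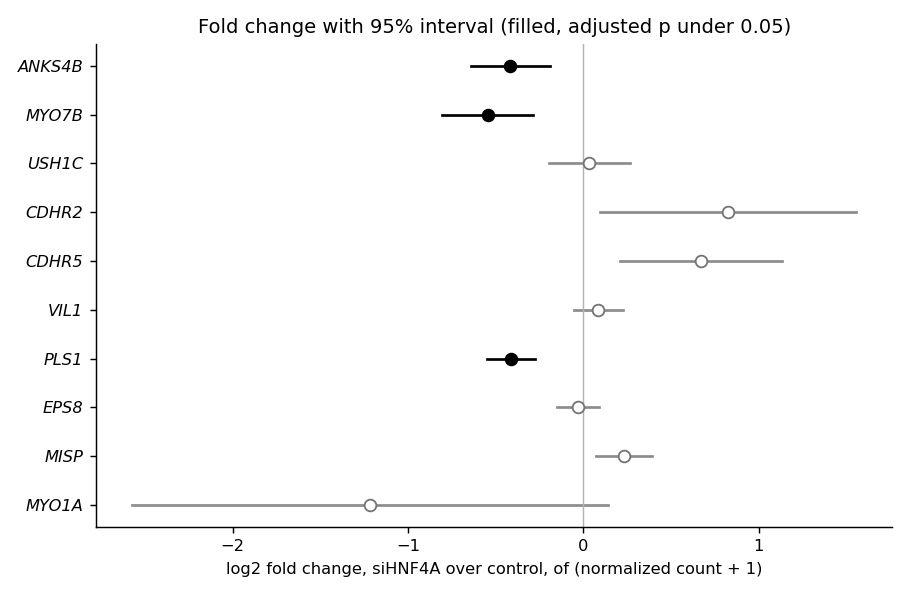
Log2 fold change, siHNF4A over control, of (normalized count + 1) for the 10 genes (points) with 95% intervals from limma (lines), filled where the adjusted p over all genes tested was under 0.05. MYO7B, ANKS4B and PLS1 are filled and lie left of 0, EPS8 and VIL1 have narrow intervals across 0, and MYO1A has the widest interval of the 10.

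The libraries of the knockdown differed from each other for these genes. In 9 of the 10 members siHNF4A 1 was higher than siHNF4A 2, with MISP the exception, against 51.9% of all genes tested. For EPS8 the difference was small, with a ratio of 1.01, and for ANKS4B it was smaller still. The median ratio of siHNF4A 1 to siHNF4A 2 was 1.15 over the members and 1.01 over all genes tested. HNF4A was also higher in siHNF4A 1, by 1.22-fold. Between the controls 3 of the 10 members were higher in control 1, against 45.6% of all genes tested, and the median ratio of control 1 to control 2 was 0.993.

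**Figure D4:**
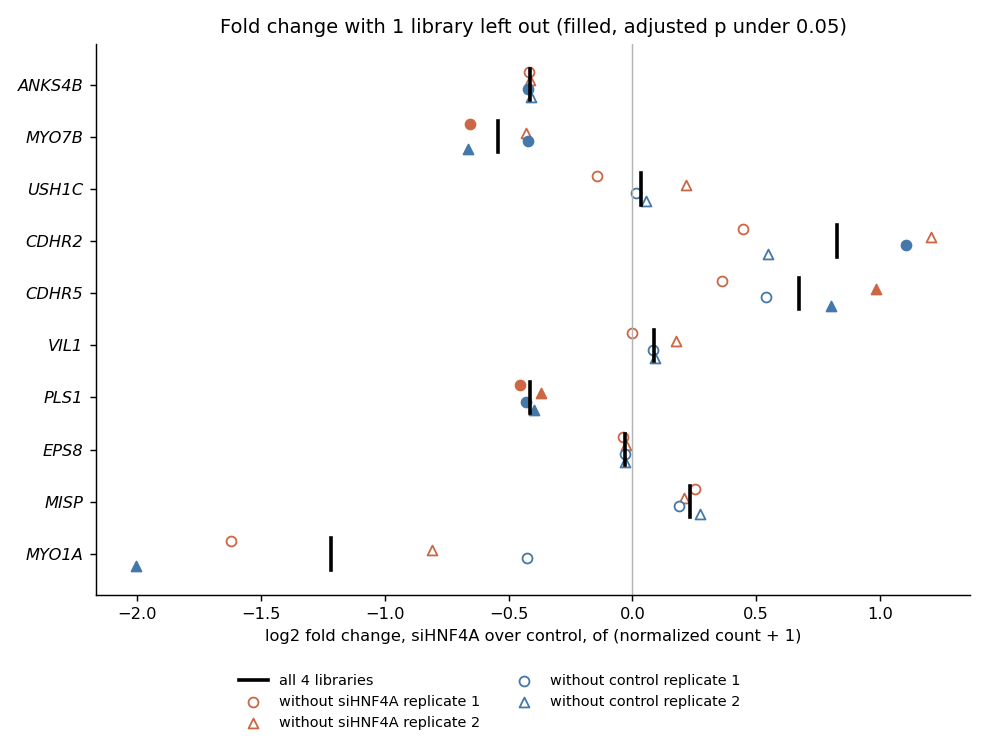
Log2 fold change, siHNF4A over control, of (normalized count + 1) for the 10 genes with all 4 libraries (black bars) and with each library left out in turn (symbols, filled where the adjusted p was under 0.05). The ANKS4B and EPS8 symbols lie closest together. Those of MYO1A run from -2.01 to -0.43 and those of CDHR2 from 0.45 to 1.20.

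Further genes of the microvillus were taken from a list of 21 that shape or anchor the actin core, of which 19 passed the filter. Of these 1 rose, 1 fell and 17 were not called, a called share of 10.5% against the 14.1% of all genes tested, and the median log2 fold change was 0.036. BAIAP2L2, a membrane-bending protein of the IRSp53 family, had 266 and 279 normalized counts in control cells, against 187 and 142 after knockdown. It fell by 0.74 on the log2 scale (adjusted p = 0.0184 in limma), and this call was lost without siHNF4A replicate 2 (0.117). MYO6, a motor that moves towards the base of the microvillus, had 3005 and 2987 in control cells, against 3424 and 3583 after knockdown. It rose by 0.23 (adjusted p = 0.0402 in limma), and this call was lost in each of the 4 fits with 1 library left out, where the adjusted p lay between 0.0633 and 0.222. EZR, encoding ezrin, the linker between actin and membrane proteins, had 13323 ± 725 normalized counts in control cells, against 12700 ± 521 after knockdown (SD, n = 2), with an adjusted p of 0.480 in limma. CAPZB, a subunit of the capping protein, had 4975 ± 170 and 5172 ± 28.3 (adjusted p = 0.573).

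Apical scaffolds and the machinery that delivers membrane to the apical side formed a list of 19 genes, all of them tested. Of these 1 rose, 2 fell and 16 were not called, with a median log2 fold change of -0.077. The called share of 15.8% was near the 14.1% of all genes tested. UNC45A, a chaperone that folds myosin heads, had 1715 and 1752 normalized counts in control cells, against 2601 and 2469 after knockdown. It rose by 0.55 on the log2 scale with a standard error of 0.070 (adjusted p = 0.00117 in limma) and was also called in the 4 fits with a library left out. UNC45A overlaps HDDC3 in the RefSeq annotation. PRKCI, the atypical protein kinase C of the apical polarity complex, fell by 0.28, from 2657 ± 20.3 to 2195 ± 55.4 (SD, n = 2; adjusted p = 0.0223 in limma). VPS33B, which works in apical vesicle traffic, fell by 0.35, from 767 ± 60.5 to 601 ± 11.1 (adjusted p = 0.0444). PRKCI and VPS33B each stayed called in 1 of the 4 fits with a library left out. With 1 left out, the adjusted p of PRKCI reached 0.131 without siHNF4A replicate 2 and that of VPS33B 0.170 without siHNF4A replicate 2. VPS33B also lost its call with equal library totals (0.0739) and after quantile normalization (0.0650). CDC42, a small GTPase of polarity, and STX3, the apical syntaxin, were not called, with log2 fold changes of 0.051 and -0.10.

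The enzymes, carriers and receptors that sit in or beneath the apical membrane of enterocytes were read from a list of 25, of which 20 passed the filter. Of these 5 fell, 1 rose and 14 were not called, and the median log2 fold change was -0.17. The called share was 30%, against 14.1% of all genes tested, and 1 of the 6 called genes, ALPI, passed the filter through its control libraries alone. GUCY2C, the receptor for guanylin peptides on the apical membrane, had 2329 and 2407 normalized counts in control cells, against 1532 and 1547 after knockdown. It fell by 0.62 on the log2 scale with a standard error of 0.070 (adjusted p = 6.42e-04 in limma) and was also called in the 4 fits with a library left out. It overlaps GUCY2C-AS1 in the RefSeq annotation.

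The other genes of this list called as lower had low values. ANPEP, an aminopeptidase, had 81.0 and 46.9 normalized counts in control cells, against 15.6 and 26.0 after knockdown (log2 fold change -1.56, adjusted p = 0.0230 in limma). SLC26A3, a chloride and bicarbonate exchanger, had 97.7 and 68.5 and then 35.9 and 41.4 (-1.07, adjusted p = 0.0297). SLC6A19, a carrier of neutral amino acids, had 37.3 and 28.3 and then 12.4 and 11.0 (-1.41, adjusted p = 0.0391). In these 3 genes both knockdown libraries lay below both controls. ALPI, the intestinal alkaline phosphatase, had 23.4 and 15.1 in control cells, against 2.62 and 1.97 after knockdown. Its mean over the 4 libraries was 10.8, so that it was tested only because of the control values, and it had to differ. Its log2 fold change was -2.60 (adjusted p = 0.0167 in limma) and -1.24 with a pseudocount of 10, and the call was lost when every gene above 0 somewhere was tested (0.0641). ALPI has close relatives among the other alkaline phosphatases, and how reads shared with them were counted is not given in the sources used here.

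SI, encoding sucrase-isomaltase, rose, from 77.0 and 73.4 to 120.1 and 128.5 normalized counts (log2 fold change 0.72, adjusted p = 0.0384 in limma). SI stayed called only without control replicate 1 among the 4 fits with a library left out, and was not called after quantile normalization (0.0570). Of the same fits ANPEP and ALPI stayed called in 2 each, and SLC6A19 and SLC26A3 in 1 each. DPP4, the gene of the list with the highest count, had 5144 ± 87.6 in control cells, against 4569 ± 50.1 after knockdown (SD, n = 2) and was not called (adjusted p = 0.0770). MME, LCT, TREH, CFTR and FABP1 had means under 10 and were not tested.

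**Figure D5:**
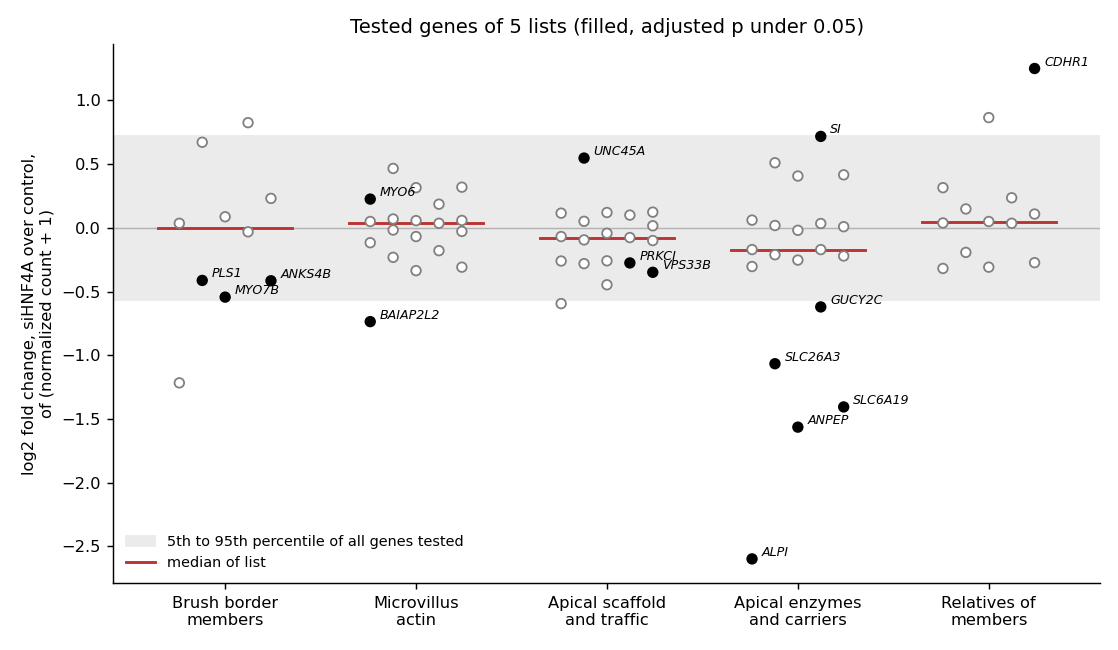
Log2 fold change, siHNF4A over control, of (normalized count + 1) for the tested genes of the 10 members and of 4 lists (points, filled and named where the adjusted p was under 0.05), with the median of each list (red line) and the range from the 5th to the 95th percentile of all genes tested (grey band, -0.57 to 0.72). The members' median lies at 0.0020. The lowest point, ALPI, is a gene that was tested only because of its control values.

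Close relatives of the members, which share their protein folds, were set beside them. Of 19 relatives 18 were found, and 13 of these passed the filter, 4 of which (EPS8L2, MYO1C, MYO1D and MYO1E) were already counted among the further microvillus genes. CDHR1 rose, and the other 12 were not called, a called share of 7.69% against the 14.1% of all genes tested. PLS3, a plastin like PLS1, had 4229 and 4541 normalized counts in control cells, against 4390 and 4612 after knockdown (log2 fold change 0.038, adjusted p = 0.743 in limma). The ratio of PLS1 to PLS3 counts was 1.09 and 1.03 in control cells, against 0.818 and 0.735 after knockdown, with no overlap between the groups. With 2 libraries in each group an exact permutation test of that ratio cannot give a two-sided p below 0.333, and none was run.

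MYO1C, a class I myosin like MYO1A with broad expression, had 2812 and 2929 normalized counts in control cells, against 3066 and 2822 after knockdown. The groups overlapped, with a log2 fold change of 0.036 (adjusted p = 0.780 in limma). CDHR1, a relative of the tip protocadherins known from photoreceptors, had 178 and 139 normalized counts in control cells, against 378 and 374 after knockdown. It rose by 1.25 on the log2 scale (adjusted p = 0.00107 in limma) and was also called in the 4 fits with a library left out. MYO7A, the relative of MYO7B in inner-ear hair cells, had 24.2 and 29.7 in control cells, against 55.4 and 44.5 after knockdown and was not called (adjusted p = 0.0926). The ratio of MYO7B to MYO7A counts was 41.5 and 28.5 in control cells, against 12.3 and 13.2 after knockdown. VILL and EPS8L2, the relatives of VIL1 and EPS8 with the highest counts, were not called, with log2 fold changes of -0.19 and 0.049. The ratio of VIL1 to VILL counts was higher after knockdown, at 31.4 and 34.8, against 26.0 and 28.4 in control cells. That of EPS8 to EPS8L2 overlapped between the groups, as did those of CDHR2 and CDHR5 to CDHR1. USH1G, the relative of ANKS4B, was near 0 in all 4 libraries, at 4.35 or less.

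The libraries were checked against their label. The normalized counts summed to between 17912507 and 18613685 per library, and the absolute depth is unknown. The 6 epithelial markers EPCAM, CDH1, KRT8, KRT18, KRT19 and CLDN4 summed to 88053 and 93187 normalized counts in control cells, against 79914 and 80053 after knockdown, a lower sum in both knockdown libraries. Of these 4 fell and 1 rose, a called share of 83.3% against 14.1% of all genes tested, among them KRT18 (log2 fold change -0.51, adjusted p = 7.19e-04 in limma) and KRT19 (0.22, adjusted p = 0.0192). Summed normalized counts of markers of other cell types were far below the epithelial sum, with no correction for the length or number of genes. Only some planned markers were found: 4 of 6 fibroblast, 3 of 6 immune, 2 of 5 endothelial and 4 of 6 squamous. The sum of 4 fibroblast markers was 210.2 and 132 in control cells, against 238 and 235 after knockdown. Most of it was COL1A1, with 179 and 108 against 202 and 212 (not called), and the values of COL1A2, DCN and PDGFRB overlapped between the groups. The sum of 3 immune markers was 7.77 and 15.7, against 16.5 and 24.3, most of it CD14, which was not called. The sum of 2 endothelial markers was 24.6 and 15.2, against 64.0 and 47.2, with most of the difference in VWF. VWF had 8.55 and 6.68 in control cells, against 47.5 and 36.4 after knockdown, and was called as higher (adjusted p = 0.00542 in limma). These 3 sums were higher in both knockdown libraries, while that of 4 squamous markers (35.5 and 15.0, against 20.1 and 36.2) overlapped. Of the squamous markers KRT5 had 32.6 and 12.1 in control cells, against 6.14 and 10.5 after knockdown and was not called, while KRT14 had 0.637 and 2.29, against 12.2 and 25.7 (adjusted p = 0.0185 in limma). KRT13 and DSG3 were at 1.79 or less in each library. KRT5, KRT14, CD14 and VWF passed the filter through 1 group only. Their part in the changes of the brush border genes was not tested. As these are bulk libraries, fewer cells with a transcript and less transcript per cell cannot be told apart.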

How the data were processed

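RNA-seq of the 4 ESO26 libraries was used. Per the submitters' processing notes, hg19 was the genome build and Bowtie, Bowtie2, Trim Galore, Picard and MACS2 were used, with no role stated. The aligner of the RNA-seq, the annotation, the counting and the normalization are not given in the sources used here. The deposited table holds normalized counts, a signal value per gene symbol that the authors made before deposit, with fractional values. Whole reads were not recovered: of the values of genes above 0 in 1 library only, between 54.5% and 66.8% lay on multiples of the most frequent value divided by 2, to within 2% of that step. Taken as an equal read number per library, that value places siHNF4A 1 and siHNF4A 2 at 1.37 and 1.21 times the depth of control 1, and control 2 at 1.10 times. No count model was therefore fitted.

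Libraries were grouped by title. limma 3.58.1 in R 4.3.3 (lmFit, eBayes with an intensity trend) was fitted on log2(normalized count + 1) of genes whose mean reached 10, with no block, and tested on simulated data with known changes. Intervals are 95% intervals of the moderated fit. Alternatives changed the pseudocount, the filter, the scaling, the variance model and the block, and left out each library. Older symbols were resolved through RefSeq and gene name tables. The genes, the lists and the tests were chosen with earlier results of these data known. Named genes are the members, HNF4A, up to 8 called genes of each list, the 2 with the highest mean in each, and the relative of each member with the highest mean. CALML4 and the markers KRT18, KRT19, KRT5, KRT14, KRT13, DSG3, COL1A1, COL1A2, DCN, PDGFRB, CD14 and VWF were named after their values were seen. One gene of the planned list of relatives is not reported here and was left out of its counts. Levels per length were planned and not run, as no transcript lengths were used. Peaks and 4C libraries were not analysed here.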

Additional observations from a re-analysis of the deposited data

How the results depend on the processing

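With 2 libraries per group every call rests on variances shared across genes. The number of members called, 3 as reported, was 5 with a filter at a mean of 50, 1 when all genes above 0 in at least 1 library were tested (PLS1), 0 without the variance trend (3 members had an unadjusted p under 0.05 in limma, and 3524 of all genes, of which 0 were called), 4 with the replicate block (15.6% of all genes called) and 4 with either other scaling. The fold changes of members that lost a call were those reported: -0.54 for MYO7B and -0.42 for ANKS4B with all genes above 0, and -0.54, -0.41 for PLS1, -0.42 and, for HNF4A, -1.97 (adjusted p = 0.0919) without the trend. CDHR5 at 0.67 passed the threshold with the filter at 50 and with the block, and MISP at 0.23 with the filter at 50, at 0.27 with equal totals and at 0.28 after quantile normalization. EPS8 changed sign to 0.0075 and 0.012 under these scalings. The causes were not tested, beyond that the filters change how many genes are tested.

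Deviations of same-numbered libraries were hardly correlated (Pearson correlation -0.019 over 15577 genes, 0.056 over the 10918 with a mean of at least 100). With 2 pairs this cannot show whether the libraries were paired. The replicate block gave 4 calls of further microvillus genes, where MYO6 lost its call (adjusted p = 0.0501 in limma) and RDX, MYO1D and MYO1E gained one, 5 of apical scaffolds (PARD3 and PARD6B gained one), 4 of relatives (EPS8L3, MYO1D and MYO1E gained one), and 7 of apical enzymes and carriers (SLC26A6 gained one, as higher). The counts of called genes (2 for further microvillus genes, 3 for apical scaffolds, 6 for apical enzymes and carriers, 1 for relatives) became 3, 5, 4 and 2 with the filter at 50, 0, 1, 1 and 1 with all genes above 0, and 0 in each list without the trend. Relatives also had 2 calls with either other scaling and with the robust variance fit, and apical enzymes and carriers 7 with a pseudocount of 10, equal totals and the robust variance fit.

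With each library left out in turn, the spread comes from the other group and from variances shared across genes, so these fits are a limited check. The members called ranged from 2 to 4, further microvillus genes from 0 to 3, apical scaffolds from 1 to 3, apical enzymes and carriers from 2 to 5 and relatives from 1 to 3. The log2 fold changes ranged from -2.11 to -1.82 for HNF4A, -0.0028 to 0.18 for VIL1, 0.45 to 1.20 for CDHR2, 0.36 to 0.98 for CDHR5, -0.67 to -0.42 for MYO7B, -0.14 to 0.21 for USH1C, -2.01 to -0.43 for MYO1A, -0.037 to -0.026 for EPS8, -0.45 to -0.37 for PLS1, 0.19 to 0.27 for MISP and -0.42 to -0.41 for ANKS4B. EPS8L2 changed sign to -0.0099 without siHNF4A replicate 1 and to -0.024 without control replicate 2, MYO1C to -0.024 without siHNF4A replicate 1, and PLS3 to -0.013 without control replicate 1, their ranges reaching up to 0.12, 0.096 and 0.089. Genes with a mean under 10 were not tested, and no counting error can be given.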
